A study of Mus musculus with 179 samples.

Results

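The response of the nucleus accumbens (NAc) to variable stress was examined in adult female mice that had met early life stress (ELS). The libraries were chosen by their title codes, which gave 6 libraries of ELS mice that met sub-threshold variable stress (STVS) and 5 libraries of ELS mice kept as adult controls, so 11 of the 179 samples of the series and of its 163 RNA samples. All mice were C57Bl6/j, and both groups carried the same early history, ELS on postnatal days 10 to 20, so the comparison shows what the adult stress added to that history and holds no measure of ELS itself. Females reared under standard conditions gave 5 STVS and 6 control libraries of the same region, which were used to set the ELS result in context, as were 6 STVS and 5 control libraries of ELS females from each of the ventral tegmental area (VTA) and the prefrontal cortex (PFC). Each library held poly-A RNA of 1 mouse, from tissue taken 24 h after behavioural testing. The labels give no adult age and do not describe the ELS or STVS procedure. The extraction text speaks of males while the sex label says female, and Xist, the RNA of the silenced X chromosome, ran from 29878 to 54479 normalised reads in the 11 libraries, with Ddx3y, a Y-linked gene, at 21.9 or less. For 4 of the 6 STVS libraries (replicates 2, 3, 4 and 6) and 2 of the 5 controls (2 and 4) the label for the adult condition repeats the sex, and the group rests on the title alone.

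The NAc is the ventral part of the striatum and a main target of midbrain dopamine neurons. Most of its neurons are GABAergic spiny projection neurons, of which one class carries the D1 dopamine receptor with dynorphin and substance P, and the other the D2 receptor with enkephalin. Variable stress exposes an animal to a changing series of mild stressors, and a sub-threshold course is kept short so that it has little effect on behaviour in animals without an earlier stress. Stress hormones act on these cells through the glucocorticoid and mineralocorticoid receptors, which bind DNA and switch on genes such as Fkbp5, Sgk1 and Plin4.

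The punches carried the markers of the labelled region. Drd1a (Drd1, the D1 receptor) lay at 6598.7, 5666.2, 7346.8, 8789.4, 5566.1 and 7860.1 normalised reads in STVS replicates 1 to 6 and at 7629.8, 7000.5, 7940.8, 6772.7 and 5851.4 in control replicates 1 to 5. Drd2, the D2 receptor, ran from 2963.0 to 5372.8 and from 3147.7 to 5423.3, and Ppp1r1b, which encodes the dopamine-regulated phosphoprotein DARPP-32, from 22061 to 31753 and from 22498 to 33075. The groups overlapped almost entirely for all 3 genes. Slc6a3, the dopamine transporter of midbrain neurons, was between 12.1 and 30.0. Libraries differed more in markers of neighbouring tissue. Slc17a7, the vesicular glutamate transporter of cortical neurons, was 4933 in STVS replicate 4 against 80.9 to 955.8 in the other STVS libraries, and 1729 in control replicate 3 against 89.9 to 770.6 in the other controls. Ttr, the transthyretin made by choroid plexus, was 40770 in STVS replicate 1 and at most 308.6 in the other 10 libraries. Recovered reads per library were 22141993 to 36844795, with means of 30.4 ± 3.46 M reads (SD, n = 6) for STVS and 29.3 ± 5.92 M reads (SD, n = 5) for controls (exact permutation test, two-sided, p = 0.736).

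No gene passed an adjusted p under 0.05 for STVS in ELS mice. Of 14000 genes tested with limma and Benjamini-Hochberg adjustment, 0 were called (0%), and the smallest adjusted p was 0.9995. At an unadjusted p under 0.05 there were 308 genes (2.20%), of which 188 were higher (1.34%) and 120 lower (0.857%) in the STVS group. The cut itself would pass a share of about 0.05 if no gene had an effect, and the count lay below that. edgeR and DESeq2 on the recovered reads called 0 genes too, with 342 and 355 at an unadjusted p under 0.05. The fit still set narrow bounds on what STVS could have done to a gene's mean, given a spread per gene shared by all 4 groups. ELS STVS libraries differed more among themselves than ELS controls did, which a shared spread does not allow for. The 95% interval of the log2 fold change lay within ±0.5 for 90.6% of genes and within ±1 for 98.9%, at a median standard error of 0.083. Fold changes here are on the log2(value + 1) scale, STVS minus control. Across all tested genes 42.1% were higher and 57.9% lower at any size, and the median was -0.01; counts of list members below are read against these shares. The groups did not overlap for 11 higher genes (0.0786%) and 8 lower genes (0.0571%). Without the doubted libraries (ELS STVS replicate 1, with its Ttr, and a standard-reared STVS library with Xist at 100.9) the unadjusted count was 319, and without the libraries of incomplete label, which leaves 2 STVS and 3 control libraries here, it was 435. In the latter fit Plin4 had a log2 difference of 0.92, Npy1r of -0.38, Rnf5 of -0.23, Nsun6 of 0.12 and Zfp869 of -0.02. The genes described next are therefore those of smallest p in a comparison in which none was called, and their values are a description.

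Among the 12 higher genes of smallest p was Plin4, which encodes the lipid droplet coat protein perilipin 4 and is switched on by glucocorticoids in several tissues (GRCm38 chr17:56100587-56109948). Plin4 measured 95.04, 70.7, 76.8, 56.2, 83.1 and 74.4 normalised reads in STVS replicates 1 to 6 and 38.04, 57.2, 45.0, 43.9 and 59.1 in control replicates 1 to 5. All STVS libraries but replicate 4 lay above every control, and replicate 4 was inside the control range. The log2 difference was 0.64 ± 0.21 (SE, 95% interval 0.21 to 1.06, limma unadjusted p = 0.0052, adjusted p = 0.9995), and it stayed between 0.55 and 0.72 when any 1 of the 11 libraries was left out. Sult1a1, a phenol sulfotransferase also on the list of glucocorticoid-responsive genes, measured 188.2, 141.3, 140.7, 152.2, 172.3 and 166.0 in STVS replicates 1 to 6 and 110.9, 154.9, 137.6, 137.4 and 101.4 in controls. Its groups overlapped only through control replicate 2, and the log2 difference was 0.32 ± 0.12 (SE, limma unadjusted p = 0.0155, adjusted p = 0.9995). These were the 2 of 18 tested members of that list (19 listed) past an unadjusted p of 0.05, beside 2.2% of all genes. The list was chosen with earlier results of these data known, so the count is a description.

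The promoters of these 2 genes are shown because they are the members of a hormone-driven list with the smallest p. Each run covers 250 bases before to 50 after 1 transcription start given by RefSeq (GRCm38.p6), which for both genes lies inside the span of the gene, so other transcripts start elsewhere. The runs are written 5′ to 3′ on the minus strand, at chr17:56109733-56110032 for Plin4 and chr7:126676369-126676668 for Sult1a1. Capitals mark the glucocorticoid receptor half-site, searched as TGTTCT and its reverse complement AGAACA.
Plin4: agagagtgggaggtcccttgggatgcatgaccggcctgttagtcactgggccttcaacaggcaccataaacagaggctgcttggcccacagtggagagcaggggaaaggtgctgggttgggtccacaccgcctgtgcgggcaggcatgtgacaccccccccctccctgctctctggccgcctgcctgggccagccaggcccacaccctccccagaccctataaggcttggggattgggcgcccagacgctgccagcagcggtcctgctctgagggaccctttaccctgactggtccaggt
Sult1a1: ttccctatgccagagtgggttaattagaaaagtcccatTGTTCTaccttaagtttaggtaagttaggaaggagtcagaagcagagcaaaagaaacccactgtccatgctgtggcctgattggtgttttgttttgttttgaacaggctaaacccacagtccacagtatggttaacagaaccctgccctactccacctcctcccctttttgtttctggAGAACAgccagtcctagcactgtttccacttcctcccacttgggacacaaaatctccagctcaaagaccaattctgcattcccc
The Sult1a1 window holds 2 half-sites, 1 in each orientation, and the Plin4 window holds 0 matches to these letters. Of 32851 promoter windows of the same length, 19.0% hold at least 1, so a match is common and marks no binding site.

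The hormone-driven list as a whole was evenly split. Of its 18 tested members, Plin4 and Sult1a1 included, 9 were higher and 9 lower, with a median log2 difference of -0.00, beside -0.01 over all genes. Fkbp5, the receptor's co-chaperone and a standard readout of its activity, averaged 1298 normalised reads in STVS and 1266 in controls (log2 difference 0.04 ± 0.11, SE). Sgk1, a kinase induced by the same hormones, averaged 2202 and 2193 (0.00 ± 0.08). Tsc22d3, which encodes the anti-inflammatory protein GILZ, averaged 1374 and 1427 (-0.06 ± 0.14). Among genes of the stress hormone system itself 3 of 9 tested were higher and 6 lower. Nr3c1, the glucocorticoid receptor, averaged 3465 and 3580 (-0.05 ± 0.07), and Nr3c2, the mineralocorticoid receptor, 2078 and 2149 (-0.05 ± 0.09). Each of these 5 differences was smaller than its standard error.

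**Figure D1:**
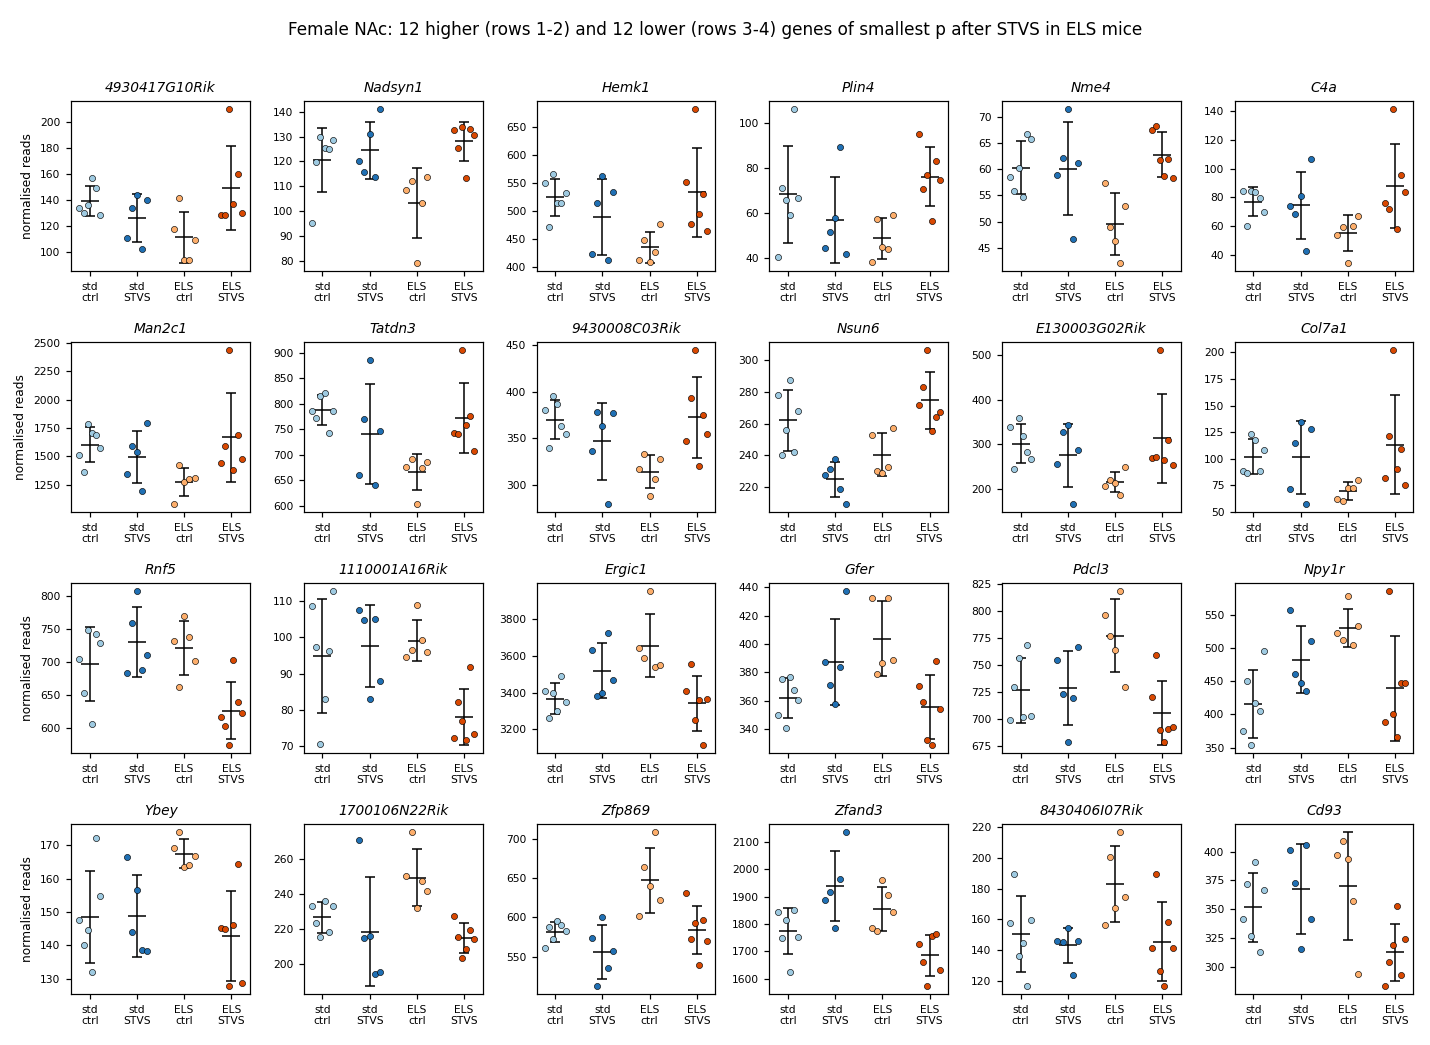
Normalised reads (vertical axis) of the 24 genes with the smallest p (12 higher, 12 lower), 1 panel a gene, in the 4 groups of female NAc libraries. Points are libraries and bars the mean with SD; std is standard rearing and ctrl the adult control. The genes were picked on the difference between the ELS groups: ELS STVS has the highest group mean and ELS controls the lowest in 11 of the 12 higher genes each, and among the 12 lower genes ELS STVS is lowest in 9 and ELS controls highest in 10.

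The other higher genes were of mixed function. Nadsyn1, which makes the cofactor NAD from nicotinic acid adenine dinucleotide, measured 132.5, 125.4, 133.7, 113.3, 132.9 and 130.8 normalised reads in STVS replicates 1 to 6 against 108.5, 112.0, 79.0, 103.1 and 113.7 in controls, with only STVS replicate 4 inside the control range (log2 difference 0.32 ± 0.10, SE, limma unadjusted p = 0.0049). Nme4, a mitochondrial nucleoside diphosphate kinase, measured 67.6, 68.4, 61.9, 58.8, 62.1 and 58.3 against 57.5, 48.9, 46.3, 42.0 and 52.9. Its groups did not overlap, though the nearest libraries differed by less than 1 normalised read (0.34 ± 0.11). Nsun6, an RNA cytosine methyltransferase, measured 271.4, 282.6, 306.3, 255.1, 264.1 and 267.5 against 252.5, 230.0, 228.9, 232.9 and 257.5 (0.19 ± 0.07). Hemk1, a mitochondrial glutamine methyltransferase that acts on release factors, ran from 465.7 to 683.4 against 410.0 to 477.9 (0.28 ± 0.09).

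The remaining higher genes had their highest value in 1 library, STVS replicate 3. The same library was highest for Nadsyn1, Nsun6 and Hemk1 above, and Hemk1 was at most 552.0 in the other STVS libraries. Man2c1, the cytosolic alpha-mannosidase, measured 1439, 1589, 2439, 1381, 1690 and 1472 normalised reads in STVS replicates 1 to 6 against 1077, 1419, 1276, 1301 and 1308 in controls. Replicate 3 stood far above the rest, and the log2 difference of 0.36 ± 0.12 (SE) became 0.25 without it. Tatdn3, a putative nuclease, ran from 708.1 to 905.9 against 603.5 to 692.4, so the groups did not overlap (0.21 ± 0.07). E130003G02Rik (Grin1os), a long non-coding RNA on chr2:25291258-25298660 that overlaps Grin1, the obligatory NMDA receptor subunit, ran from 252.4 to 512.8 against 186.1 to 248.7, again without overlap (0.50 ± 0.18). Without strand, its reads cannot be told apart from those of Grin1. Col7a1, a collagen of anchoring fibrils, ran from 75.4 to 202.5 against 59.6 to 80.2 (0.62 ± 0.23). C4a ran from 57.9 to 141.7 against 34.1 to 67.0 (0.64 ± 0.22), but RefSeq lists it as a transcribed pseudogene and its reads are hard to separate from those of the near-identical C4b, the complement component, which averaged 981.6 and 890.2 (0.13 ± 0.12). 4930417G10Rik (Fam228a) had a log2 difference of 0.41 ± 0.13 and the non-coding 9430008C03Rik (Snhg17), a small nucleolar RNA host gene, 0.24 ± 0.08. Of the 24 genes of smallest p, 12 overlap another RefSeq gene.

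STVS replicate 3 held the highest value of the STVS group in 10 of the 12 higher genes, and control replicate 3 the lowest of the controls in 6. Beside this stands Malat1, an abundant long non-coding RNA kept in nuclear speckles. Malat1 measured 20563, 15489, 28428, 19323, 20068 and 16953 normalised reads in STVS replicates 1 to 6 and 17570, 16053, 10634, 12366 and 15610 in control replicates 1 to 5. The same pair of libraries marks the top and the bottom of the range, with the other 9 between 12366 and 20563. The log2 difference of Malat1 was 0.48 ± 0.18 (SE, limma unadjusted p = 0.0162, adjusted p = 0.9995), and 3 of the 4 tested RNAs of its list were higher, with Meg3 at 0.29 ± 0.15, Snhg11 at 0.23 ± 0.13 and Neat1 at -0.07 ± 0.21. Without STVS replicate 3 the genes at an unadjusted p under 0.05 numbered 57 higher and 40 lower, and without control replicate 3 they numbered 75 and 66. The part of nuclear RNA content or of these libraries in the list of higher genes was not tested.

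**Figure D2:**
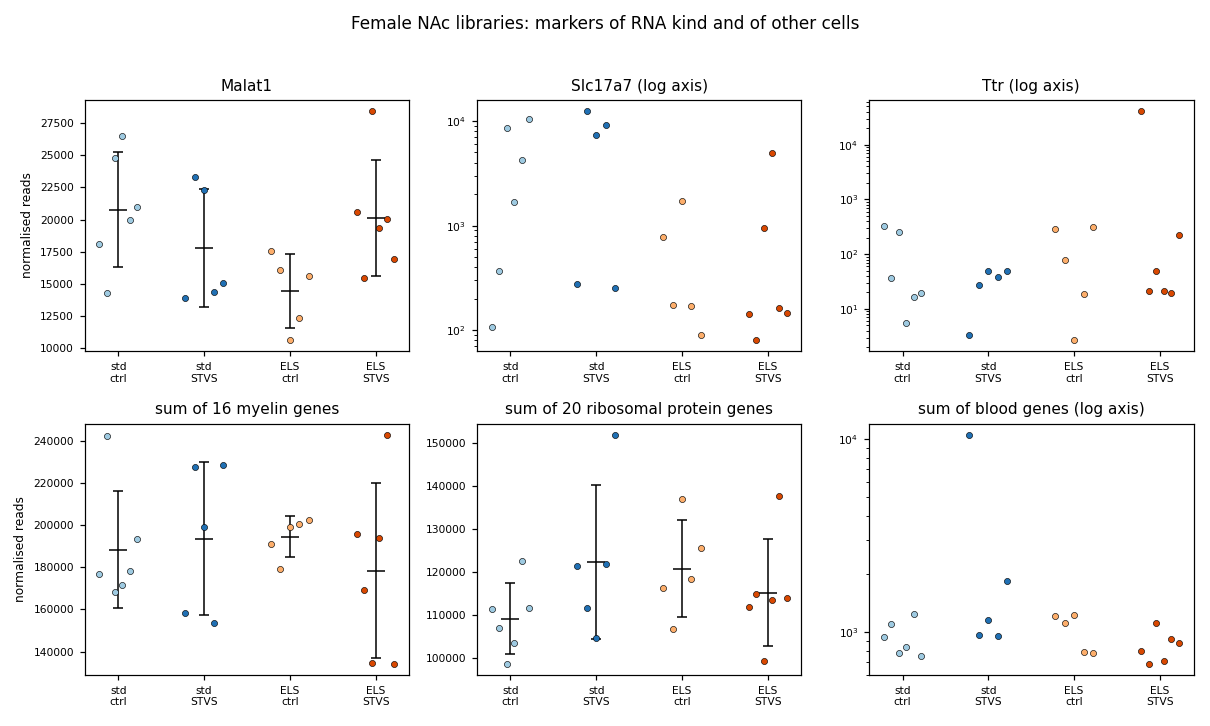
Normalised reads per library of Malat1, Slc17a7, Ttr and the summed myelin, ribosomal protein and blood genes in the 4 groups of female NAc. Points are libraries, bars the mean with SD on the linear panels, and 3 panels have a log axis. Single libraries set the extremes, such as Ttr at 40770 in ELS STVS replicate 1 and Malat1 at 28428 in ELS STVS replicate 3.

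Among the 12 lower genes, Npy1r is the member closest to stress physiology. It encodes the Y1 receptor of neuropeptide Y, a peptide of NAc interneurons known to dampen stress responses (chr8:66697149-66706800). Npy1r measured 389.3, 585.8, 400.1, 366.7, 447.8 and 446.6 normalised reads in STVS replicates 1 to 6 and 522.9, 512.5, 577.6, 504.9 and 532.6 in controls. All STVS libraries but replicate 2 lay below every control, while replicate 2 was the highest of all 11. The log2 difference was -0.29 ± 0.10 (SE, 95% interval -0.49 to -0.08, limma unadjusted p = 0.0091, adjusted p = 0.9995), and -0.37 without replicate 2. The peptide itself, Npy, averaged 1324 and 1374 (-0.07 ± 0.13). That difference had the same sign as that of Npy1r and was smaller than its standard error. The other neuropeptide Y receptors tested were Npy2r (-0.20 ± 0.34) and Npy5r (-0.05 ± 0.08).

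Rnf5, a ubiquitin ligase of the endoplasmic reticulum membrane, had the smallest p of all genes named here. It measured 616.8, 602.9, 573.7, 703.0, 639.4 and 622.6 normalised reads in STVS replicates 1 to 6 against 732.5, 662.6, 769.7, 738.7 and 701.9 in controls, with STVS replicate 4 alone inside the control range (log2 difference -0.20 ± 0.06, SE, limma unadjusted p = 0.0044). 1110001A16Rik (Cebpzos) measured 72.2, 82.1, 76.8, 71.8, 91.8 and 73.4 against 94.7, 96.5, 109.0, 99.3 and 96.1, with no overlap (-0.35 ± 0.11). Zfand3, a zinc finger protein gene, ran from 1572 to 1765 against 1775 to 1962, also without overlap but by a small step (-0.14 ± 0.05). 1700106N22Rik (Camkmt), a calmodulin lysine methyltransferase, ran from 203.5 to 227.5 against 231.6 to 275.3, the third of these 12 without overlap (-0.21 ± 0.08).

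The remaining lower genes were of mixed function. Gfer, a sulfhydryl oxidase of mitochondrial protein import, ran from 328.6 to 388.3 normalised reads in STVS and 379.0 to 432.4 in controls (log2 difference -0.18 ± 0.06, SE). 8430406I07Rik (Mgme1), a mitochondrial DNA exonuclease, ran from 116.7 to 189.2 against 156.2 to 216.7 (-0.33 ± 0.12), and Ybey, an endoribonuclease of mitochondrial ribosome assembly, from 127.7 to 164.4 against 163.5 to 174.0 (-0.23 ± 0.08). Pdcl3, a chaperone-like protein, and Ergic1, which cycles between the endoplasmic reticulum and Golgi, had log2 differences of -0.14 ± 0.05 and -0.13 ± 0.04. Cd93, a receptor of endothelial cells, ran from 283.3 to 352.8 against 293.6 to 408.8 (-0.24 ± 0.09), and Zfp869 stood at -0.15 ± 0.05. The 12 differences ranged from -0.35 to -0.13. Control replicate 3 was the highest control in 5 of the 12 and STVS replicate 4 the lowest STVS library in 6.

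The list members Ezh2 and Nrtn also reached an unadjusted p under 0.05. Ezh2, the histone H3 lysine methyltransferase of the Polycomb repressive complex, measured 244.0, 232.5, 335.2, 272.4, 240.5 and 349.0 normalised reads in STVS replicates 1 to 6 against 227.5, 222.9, 250.7, 256.7 and 216.0 in controls (log2 difference 0.23 ± 0.11, SE, limma unadjusted p = 0.0426). Replicates 3 and 6 were high and the other 4 lay near the controls. Nrtn, which encodes the dopamine neuron survival factor neurturin, measured 42.9, 57.0, 46.9, 60.5, 61.2 and 63.4 against 31.6, 35.8, 42.2, 52.5 and 41.4 (0.44 ± 0.19, limma unadjusted p = 0.0277). Most STVS libraries lay above most controls, with overlap through control replicate 4.

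Genes that define the NAc neurons lay close to 0. Of the direct pathway list 6 of 8 were lower, of the indirect pathway list 5 of 6 and of genes shared by both neuron classes 17 of 20, with medians of -0.03, -0.03 and -0.03, and none reached an unadjusted p under 0.05. Pdyn, the dynorphin precursor, averaged 9722 normalised reads in STVS and 9929 in controls (log2 difference -0.03 ± 0.10, SE), and Penk, the enkephalin precursor, 36814 and 37566 (-0.04 ± 0.09). Dopamine, serotonin and adrenergic receptors were split 8 higher and 11 lower, and glutamate receptors 11 and 11. Neuropeptides and their receptors were lower in 24 of 29 tested (30 listed), with a median of -0.07, and Npy1r was the only one past an unadjusted p of 0.05. Interneuron genes were lower in 10 of 12 (median -0.10), among them Sst, the somatostatin precursor, at -0.13 ± 0.12.

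Immediate early genes, which neurons switch on within minutes of activity, were split 17 higher and 12 lower in ELS mice, with a median log2 difference of 0.01. Fos averaged 342.2 normalised reads in STVS and 362.5 in controls (-0.10 ± 0.41, SE), Arc 2171 and 2131 (0.03 ± 0.36) and Egr1 6286 and 6224 (0.03 ± 0.22). Without the libraries with Slc17a7 over 1000 the list had 6 of 28 members lower and a median of 0.12. The median standard error of the list was 0.20 in the main fit, beside 0.083 over all genes. A shift therefore had to be larger than in a typical gene to be seen. Chromatin enzymes were higher in 22 of 30 tested (31 listed), with a median of 0.03, and only Ezh2 reached an unadjusted p under 0.05. Dnmt3a, a DNA methyltransferase, averaged 4991 and 4797 (0.06 ± 0.06). Sex steroid genes were lower in 5 of 6 tested (10 listed), and Esr1, estrogen receptor alpha, averaged 91.6 and 113.1 (-0.34 ± 0.34).

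Markers of other cells of the punch went different ways, with myelin genes the most uniform. All 16 myelin genes were lower, with a median log2 difference of -0.15 and a range of -0.31 to -0.10, and 0 reached an unadjusted p under 0.05. Mbp, myelin basic protein, averaged 60411 normalised reads in STVS and 66768 in controls (-0.19 ± 0.16, SE). The summed level of the list ran from 134329 to 242638 in STVS with a median of 181416, and from 179120 to 202544 in controls with a median of 199183. Replicates 3 and 6 lay at the bottom of the STVS range at 134409 and 134329 and replicate 5 at its top, so the groups overlapped. Without replicate 3 the median of the list was -0.08 and without replicate 6 it was -0.06. Among the 5 libraries whose adult label is complete (STVS 1 and 5, controls 1, 3 and 5) it was 0.13, the opposite direction. Oligodendrocyte precursor genes were lower in 9 of 9 (median -0.09) and 0.15 in the same 5 libraries. Microglial genes were lower in 14 of 15 (median -0.04). Astrocyte genes were lower in 8 of 13, endothelial genes in 10 of 15 and mural and fibroblast genes in 8 of 15, beside 57.9% of all genes. Choroid plexus genes were higher in 5 of 6 tested (14 listed, median 0.41) and ependymal genes in 2 of 3 (9 listed, median 0.08). The choroid plexus sum was 49229 in STVS replicate 1 and at most 1868 in controls. Only 4 of the 6 choroid plexus genes were still tested without the doubted libraries, 3 of them lower, with a median of -0.23. Which genes were tested thus depended on those libraries, so the count of 5 is not read as a group difference. In bulk tissue fewer cells of a type cannot be told apart from less RNA per cell.

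**Figure D3:**
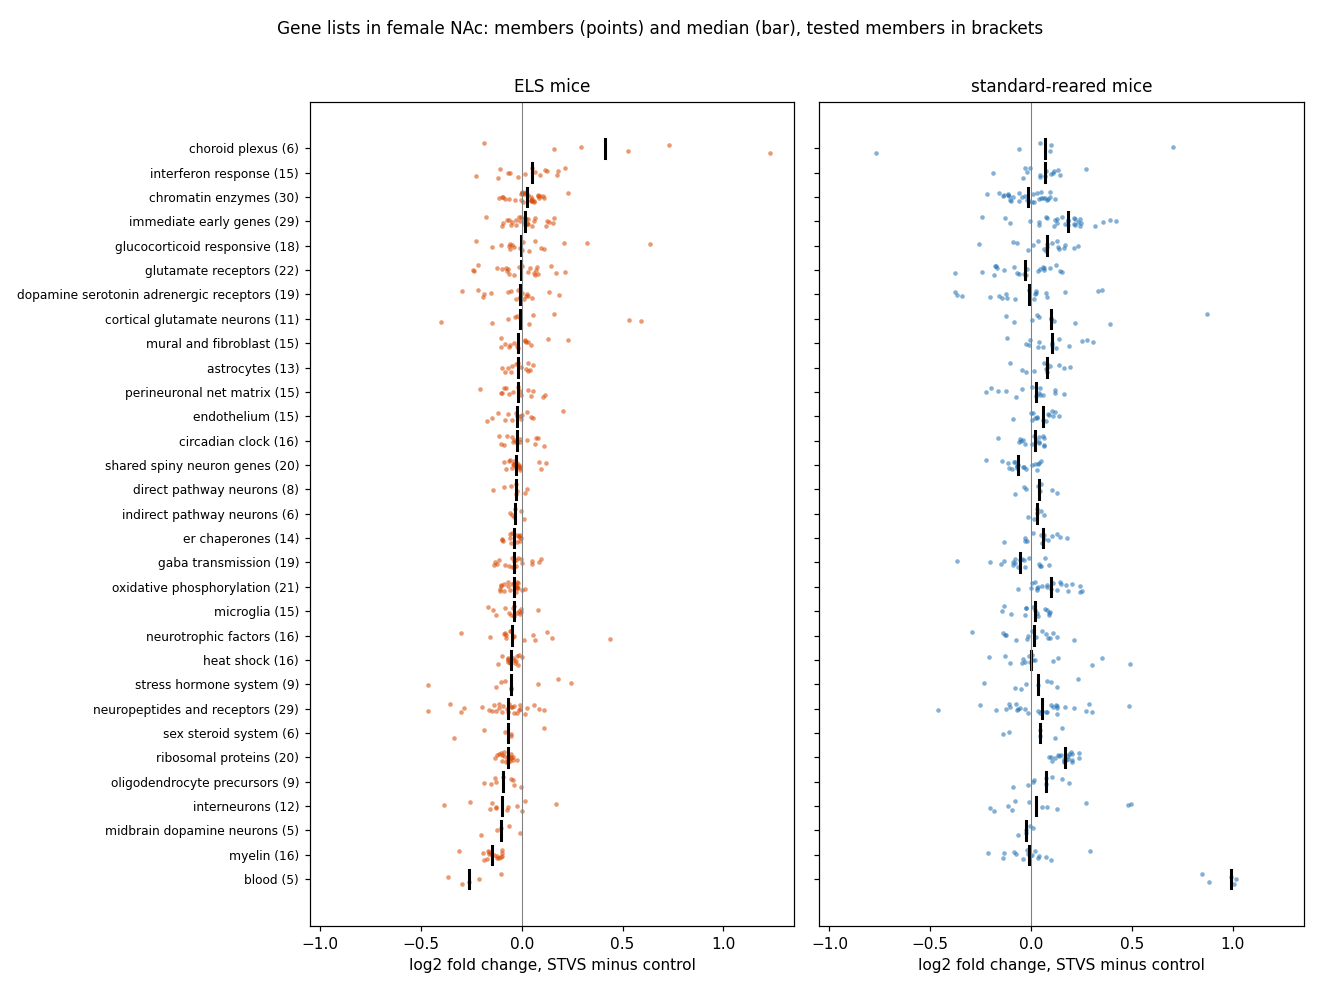
Log2 fold change, STVS minus control, of the tested members (points) and median (bar) of each gene list with at least 5 tested members, in ELS mice (left) and standard-reared mice (right). Lists are ordered by their median in ELS mice. Myelin genes sit left of 0 in ELS mice with a median of -0.15 and ribosomal protein genes lie on opposite sides of 0 in the 2 panels.

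Some lists of housekeeping function leaned the same way with even smaller differences. All 20 ribosomal protein genes were lower (median log2 difference -0.07), as were 14 of 14 chaperones of the endoplasmic reticulum (-0.04), 20 of 21 genes of oxidative phosphorylation (-0.04) and 15 of 16 heat shock genes (-0.05). None of these genes reached an unadjusted p under 0.05. The largest single difference among the ribosomal genes was that of Rps29 (-0.13 ± 0.17, SE), and the summed level ran from 99288 to 137612 normalised reads in STVS and from 106757 to 137044 in controls. The lowest sum was that of STVS replicate 3, and among the controls replicate 3 was the highest, the same 2 libraries that bound Malat1 in the opposite order. The ribosomal median was -0.03 without STVS replicate 3 and -0.02 without control replicate 3. Without the 2 libraries with Slc17a7 over 1000 in these groups, and those like them among the standard-reared, it was -0.02.

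The same adult stress after standard rearing was compared in the same region, and its group means share no library with the ELS comparison. Both comparisons came from the same fit, with the same gene filter and spread, so their p-values are not independent. After standard rearing too 0 of 14000 genes passed an adjusted p under 0.05 (0%). At an unadjusted p under 0.05 there were 862 (6.16%), 474 of them higher (3.39%) and 388 lower (2.77%). At any size 52.2% of genes were higher and 47.8% lower. The difference between the STVS effects of the 2 rearing histories was called for 0 genes (smallest adjusted p = 0.612), with 1111 at an unadjusted p under 0.05 (7.94%). Across the 14000 genes the 2 effects had a Pearson r of -0.35, a description over genes, which are not independent of each other. Of all genes 38.2% had the same sign in both, and of the 308 genes with an unadjusted p under 0.05 in ELS mice 60 did (19.5%).

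The 24 genes of smallest p belong to those 308 genes, so their signs are examples of that share and no separate result. Of the 12 higher genes 11 were lower after STVS in standard-reared mice, the exception being Nadsyn1, and of the 12 lower genes 9 were higher. Nsun6 averaged 274.5 normalised reads in ELS STVS and 240.4 in ELS controls, but 225.1 and 261.9 in the corresponding standard-reared groups, which gave a difference of effects of 0.41 ± 0.09 (SE, limma unadjusted p = 0.000247, adjusted p = 0.612). Npy1r had effects of -0.29 after ELS and 0.21 after standard rearing (difference -0.50 ± 0.14, unadjusted p = 0.0018 in limma). Zfand3 had effects of -0.14 and 0.13 (difference -0.27 ± 0.07), and Plin4 of 0.64 and -0.26 (difference 0.89 ± 0.29). Malat1 had effects of 0.48 and -0.23 (difference 0.71 ± 0.26, unadjusted p = 0.0119 in limma). No difference passed the adjustment. Of the 4 group means, that of ELS controls was lowest in 11 of the 12 higher genes and highest in 10 of the 12 lower genes, while that of ELS STVS was highest in 11 and lowest in 9. The genes were picked on the difference between these 2 groups, which sets them apart by construction. These counts therefore do not say which group the opposite signs come from.

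**Figure D4:**
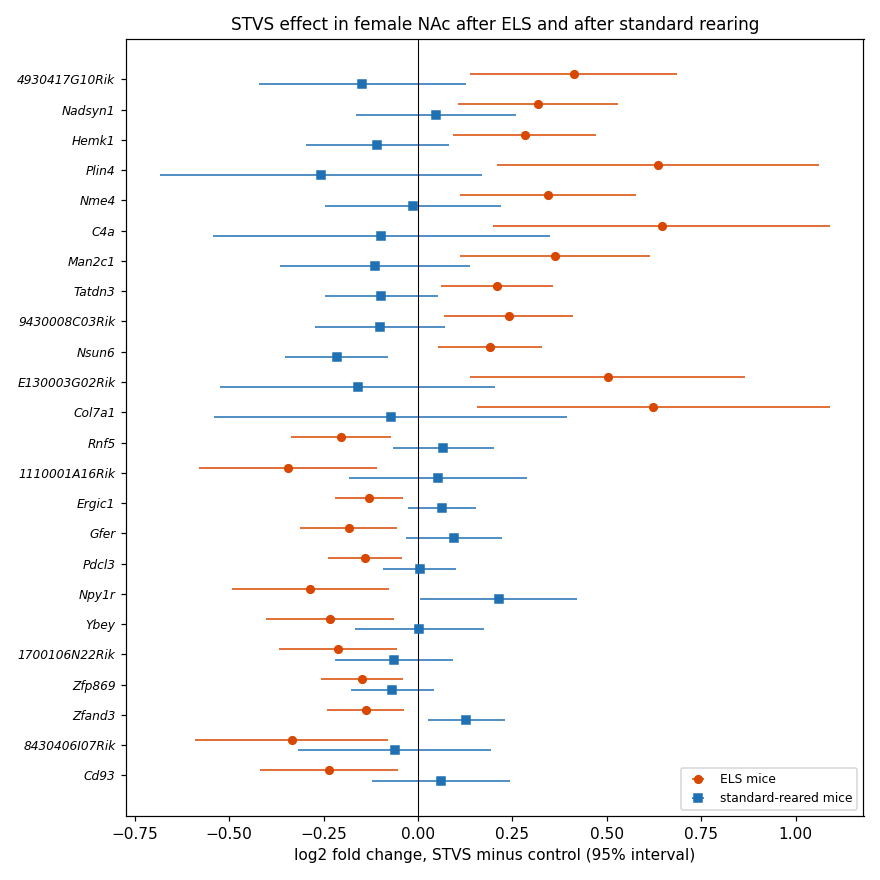
Log2 fold change, STVS minus control, with its 95% interval (horizontal axis) for the 24 genes of smallest p in ELS mice (circles) and standard-reared mice (squares). The genes were chosen on the ELS values; the standard-reared values shared no library with them and lie on the other side of 0 for 11 of the 12 higher and 9 of the 12 lower genes.

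Some lists had other medians after standard rearing. The 20 ribosomal protein genes, all lower in ELS mice, were all higher in standard-reared mice (median log2 difference 0.17), 1 of them at an unadjusted p under 0.05. The difference of effects reached an unadjusted p under 0.05 for 3 of them, beside 7.94% of all genes. Their sum was 151911 normalised reads in standard-reared STVS replicate 5. It was at most 121894 in the other STVS libraries and 122582 in their controls. The part of that 1 library in the median was not tested. Immediate early genes were higher in 25 of 29 after STVS in standard-reared mice (median 0.18), with no difference of effects at an unadjusted p under 0.05. The 5 tested blood genes (8 listed), globins and the heme enzyme Alas2, had a median of -0.26 in ELS mice and 0.99 in standard-reared mice, where 1 STVS library summed to 10484 normalised reads and the other 4 to at most 1846. Myelin genes had a median of -0.01 in standard-reared mice. Slc17a7 ran from 251.8 to 12381 in the standard-reared STVS libraries and from 108.6 to 10509 in their controls, and the part of cortical tissue in these differences was not tested.

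STVS effects in ELS mice were set beside those in the VTA and PFC of ELS females. The difference between NAc and VTA was called for 0 genes, with 109 at an unadjusted p under 0.05 (0.779%), and that between NAc and PFC for 0 genes, with 251 (1.79%). Across 13655 genes tested in the 3 regions the NAc effect had a Pearson r of 0.20 with that in VTA and 0.18 with that in PFC. Of the 294 genes with an unadjusted p under 0.05 in NAc that were tested there, 226 had the same sign in VTA (76.9%, beside 61.4% of all genes) and 236 in PFC (80.3%, beside 59.6%). No label says whether libraries of different regions came from the same mouse. Plin4 had log2 differences of 0.24 in VTA and 0.29 in PFC beside 0.64 in NAc, and Sult1a1 of 0.24 and 0.24 beside 0.32. Npy1r had -0.20 and -0.10. Nsun6 was near 0 in both, at -0.04 and -0.00. Myelin genes had a median of -0.08 in VTA and 0.43 in PFC. The part of single libraries, which moved the NAc median, was not tested for VTA and PFC.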

How the data were processed

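RNA of 11 female NAc libraries was compared (6 ELS STVS, 5 ELS control), with 11 standard-reared NAc libraries and the female VTA and PFC libraries for context. The deposited values are a signal: reads counted per gene and scaled by the authors with a single factor for each library (normalised reads). HISAT, HTSeq and build mm10 are named by the submitters' processing notes, with no version given. The way the factors were computed is not stated in the sources used. The kit was unstranded, per the labels' protocols. All positive values (100%, tolerance 0.001) proved to be whole numbers of reads once the factor was removed, and these recovered reads gave the depth. Of the table's 114 columns 48 were not used here. Libraries of 1 group differed by more than sampling noise, so none was merged. The chi-square per gene was 13.3 to 31.2 between ELS STVS libraries and 5.68 to 18.6 between ELS controls.

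From these values log2(value + 1) entered limma 3.58.1 in R 4.3.3, with the trend and robust options, over 22 libraries with 1 coefficient per group, on the 14000 genes of highest mean, with Benjamini-Hochberg adjustment. The regions were compared in 1 fit over 66 libraries. The fit was tested on simulated data first. Symbols came from a table by gene ID (25882 genes), and coordinates and promoters from RefSeq GRCm38.p6, the assembly that mm10 names. Since no 20 genes passed, the rule named the 12 genes of smallest p in each direction with a mean of at least 50 normalised reads, list members with an unadjusted p under 0.05, the leading member of other lists, and markers of sex, region and neighbouring tissue. Other genes were named for their known role after their values were seen. The members and the 34 lists were chosen with earlier results of these data known. Alternatives were another pseudocount, no filter, quantile normalisation, 2 surrogate variables (sva 3.50.0), edgeR 4.0.16 and DESeq2 1.42.0 on the recovered reads, the replicate number as a block, only the 11 ELS libraries, and leaving out each library, doubted libraries or those with an incomplete label. Leaving out libraries with Slc17a7 over 1000 was chosen after seeing the data. The series' 16 chromatin and input libraries were left out.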

Additional observations from a re-analysis of the deposited data

Results flagged for a closer look

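In 16 of 192 groups of libraries checked (62 genes and 34 summed lists in both ELS groups), 1 library lay far from the nearest other. A rate of about 1 in 20 would apply to independent values that were not picked. These genes and lists share libraries, and many genes were picked by their p or as tissue markers. The flagged share is therefore not read against that rate. STVS replicate 3 stood high for Man2c1 (2439 normalised reads), Tatdn3 (905.9), E130003G02Rik (512.8) and Col7a1 (202.5). Control replicate 3 stood low for Tatdn3 (603.5) and high for Ergic1 (3953) and for Srd5a1, a steroid reductase (233.0). STVS replicate 2 stood high for Npy1r (585.8). Control replicate 4 stood high for the interneuron factor Lhx6 (1469) and low for Nptx2, a neuronal pentraxin (460.0).

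Tissue markers gave the other values. STVS replicate 1 stood high for Ttr (40770), for Kl, the klotho gene (2336), and for the summed choroid plexus genes (49229). STVS replicate 4 stood high for Slc17a7 (4933) and the summed cortical glutamate neuron genes (10371). Control replicate 5 stood high for the summed ependymal genes (940.8).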

How the results depend on the processing

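The adjusted count of STVS after ELS and the 3 counts of differences were 0 under every alternative run. The unadjusted counts were less stable. Against 188 higher and 120 lower genes, no filter on low values gave 724 and 348, and DESeq2 gave 287 and 68. edgeR gave 61 lower. Leaving out libraries with Slc17a7 over 1000, chosen after seeing the data, gave 116 and 55. Leaving out 1 ELS library at a time gave 57 to 316 higher and 40 to 240 lower, with the fewest without STVS replicate 3. The cause was not tested, apart from the larger number of genes tested with no filter. All 308 genes kept their sign under each alternative except 1. They were picked for a small p in the main fit, and the alternatives reuse its libraries. A kept sign was therefore likely from the start and is no separate support. Without the libraries of incomplete label, which leaves 2 STVS and 3 control libraries, 301 kept it and 53 of the 308 were among the 435 then at an unadjusted p under 0.05. That alternative moved most of the 27 values of single genes and lists that changed by more than the spread, among them Drd2 (-0.24) and the lists of direct pathway (-0.21) and shared spiny neuron genes (-0.21). The choroid plexus median, 0.41 over 6 tested genes, was -0.23 without STVS replicate 1. Without the doubted libraries, which include that replicate, only 4 of the 6 were still tested, so the medians do not cover the same genes. With the replicate number as a block 320 genes were higher and 493 in all had an unadjusted p under 0.05, and 0 passed the adjustment. Same-numbered libraries had correlations of deviations from -0.155 to 0.225, so the numbers were not taken as pairs. Depth limits the low genes, and those outside the 14000 of highest mean were tested only with no filter.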
